A study of Mus musculus with 4 samples.

Results

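The 10 genes described here are a fibroblast growth factor (FGF), Fgf4, the receptors Fgfr1, Fgfr2, Fgfr3 and Fgfr4, and 5 genes that rise with receptor activity and mostly damp it or carry it on: Spry2, Spry4, Etv4, Etv5 and Dusp6. They were found by symbol in a count table of 21470 genes, and all 10 were present. Of these, 7 passed the filter on low counts and entered the tests with 6943 genes in all. Fgfr3, Spry4 and Etv4 did not pass it and were tested in a fit of all 20558 genes with a count. For large differences that fit gives much smaller p-values than the filtered fit, so p-values of the fits are not alike. RNA came from wild-type mouse embryos fathered by B6D2F1 males with ICR mothers, and was read from the 3′ ends of polyadenylated transcripts. Embryos were taken apart with the HTlasr system into an embryonic part, the inner cell mass (ICM), and an extra-embryonic part, the trophectoderm (TE), at 2 times, labelled E4 and D10, giving 4 groups of 5 libraries. The sources differ on E4: the protocols speak of diapause embryos at both times, whereas a deposited barcode list calls E4 before and D10 day 6. ICM and TE with the same replicate number came from 1 litter within a time, and of the 5 litters at E4, 2 had a zona pellucida and 3 had none. How many embryos a library holds is not stated. The 5 replicates of a group were mixed before PCR, so amplification pool and group cannot be told apart.

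In the blastocyst, epiblast precursors of the ICM secrete FGF4, which binds receptors on neighbouring cells and acts through RAS and the kinases MEK and ERK. In the ICM this signal directs cells toward primitive endoderm, the layer that later lines the yolk sac, and in the TE it sustains proliferating stem-like cells near the ICM. ERK activity switches on ETS-family transcription factors such as ETV4 and ETV5, and inhibitors of the pathway such as the Sprouty proteins and the phosphatase DUSP6, so that transcripts of these genes are widely used as a readout of FGF signalling. In embryonic diapause the blastocyst pauses ahead of implantation and can later resume development.

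Totals ran from 144276 to 1010354 counts per library, 9458 to 14402 genes were detected, and mitochondrial genes took 7.86 to 18.9% of counts. Values are given as CPM (counts scaled to library size with TMM factors). A count of 0 in 1 library allows up to 3 counts, or 2.99 to 20.7 CPM depending on its depth. The labelled tissues were checked against markers. The summed level of 10 epiblast markers was 1700 to 3010 CPM in E4 ICM and 999 to 1380 CPM in D10 ICM, against 103 to 182 CPM in E4 TE, where Prdm14 and Esrrb were at 0, and 90.1 to 163 CPM in D10 TE, where Sox2, Tdgf1 and Prdm14 were at 0. The 11 primitive endoderm markers summed to 2030 to 4810 CPM in E4 ICM, 8300 to 10900 CPM in D10 ICM, 1160 to 1580 CPM in E4 TE, with Cubn at 0, and 2600 to 3850 CPM in D10 TE. TE markers, also 11, summed to 2070 to 3010 CPM in E4 ICM, 3350 to 5450 CPM in D10 ICM, 7190 to 8230 CPM in E4 TE and 7250 to 9810 CPM in D10 TE, with Dlx3 at 0 in both E4 groups. Of 10 maternal blood and immune markers, 6 were in the table, with a highest sum of 132 CPM in a D10 ICM library, and Cd74 was at 0 throughout. Of 10 uterine and cumulus cell markers, 7 were in the table, with sums of 0 to 13.5 CPM at E4 and 13.2 to 49.8 CPM at D10. The part of these markers in the results below was not tested.

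Fgf4 was detected in every ICM library and in no TE library, and its level in the ICM was lower at D10 than at E4. The gene (ENSMUSG00000050917, GRCm38 chromosome 7, 144847367 to 144865243, plus strand) encodes the secreted ligand. In E4 ICM it measured 79.3, 102, 68.5, 55.2 and 69.7 CPM in replicates 1 to 5. In D10 ICM it measured 18.1, 19, 26.7, 11 and 66.1 CPM. Replicate 5 of D10 ICM stood apart from the other 4 and lay inside the E4 range, so the groups overlapped by that library. The means were 75 ± 17.5 CPM (SD, n = 5) at E4 and 28.2 ± 21.9 CPM at D10, and the log2 difference was -1.58 ± 0.42 (SE, adjusted p = 0.0117 by edgeR's quasi-likelihood test). In the TE the count was 0 in all 10 libraries, which allows 1.98 CPM over the E4 group and 1.17 CPM over the D10 group. Against those limits Fgf4 was 37.2-fold higher in ICM than in TE at E4 (lower exact 95% limit 29.8, adjusted p = 3.98e-06). At D10 it was 17.8-fold higher (lower exact 95% limit 13.9, adjusted p = 3.74e-05). In such tissue samples, fewer cells that make Fgf4 and less Fgf4 RNA per cell cannot be told apart. The sum of epiblast markers was also lower in D10 ICM than in E4 ICM. In replicate 5 of D10 ICM that sum was 1380 CPM, against 999 to 1240 CPM in the other 4. Fgf4 came to 4.79% of the sum in replicate 5 and to 0.924 to 2.67% in the other 4. The part of the markers in the level of Fgf4 was not tested. When the zona-bearing litters of E4 were left out, the change in Fgf4 was -1.32 with an adjusted p of 0.0873, and did not pass.

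**Figure D1:**
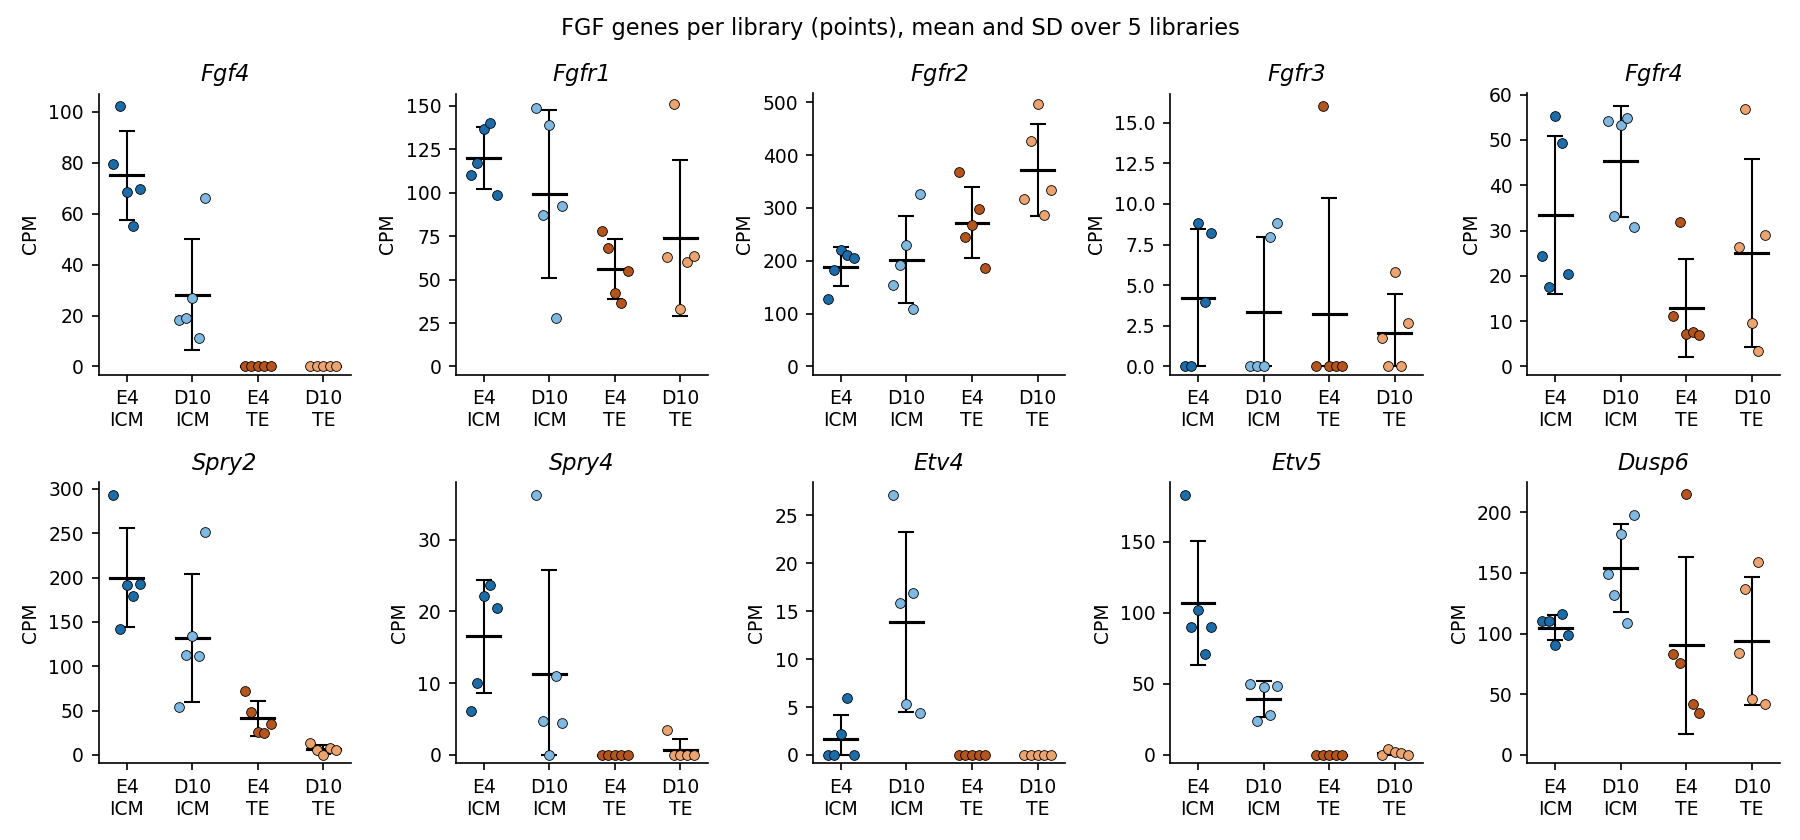
Level of the 10 FGF genes in each library, in CPM on separate linear axes, by group. Points are libraries, the thick line is the mean and the bars are the SD over 5 libraries. Fgf4 and Etv4 lie at 0 in all 10 TE libraries, Etv5 lies between 23.8 and 183 CPM in the ICM and at no more than 3.92 CPM in the TE, and the ICM and TE values of Dusp6 overlap at both times.

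Among the receptors, Fgfr1 was higher in ICM than in TE at E4 and Fgfr2 was higher in TE than in ICM at D10, while no receptor passed the test between E4 and D10 in either tissue. The receptors are tyrosine kinases that dimerise on binding FGF and heparan sulfate. Reads at the 3′ end do not tell apart their splice forms, which differ in the ligand-binding part.

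Fgfr1 (ENSMUSG00000031565, chromosome 8, 25513654 to 25575718, plus strand), the receptor found on most ICM cells, measured 110, 117, 137, 140 and 98.5 CPM in E4 ICM and 77.8, 68.1, 42.5, 36.5 and 55.2 CPM in E4 TE. Every E4 ICM library lay above every E4 TE library. The log2 difference was 1.21 ± 0.39 (adjusted p = 0.0199), with ICM higher in 5 of 5 litters. That call was lost without some single libraries: the adjusted p was 0.0517 without E4 ICM replicate 4, 0.0609 without E4 TE replicate 3 and 0.0791 without E4 TE replicate 4. The difference itself ran from 1.015 to 1.303 over left-out libraries. At D10 the ICM libraries measured 149, 87.2, 139, 27.9 and 92.5 CPM and the TE libraries 63, 151, 32.9, 60.3 and 63.6 CPM. Here the groups overlapped, ICM was higher in 3 of 5 litters, and the difference of 0.32 ± 0.37 did not pass (adjusted p = 0.572). Between the times the log2 difference was -0.40 ± 0.36 in the ICM (adjusted p = 0.455) and 0.48 ± 0.39 in the TE (adjusted p = 0.414).

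Fgfr2 (ENSMUSG00000030849, chromosome 7, 130162451 to 133123350, minus strand) is known as a receptor of the TE and of primitive endoderm precursors. It measured 128, 182, 221, 211 and 205 CPM in E4 ICM and 367, 244, 267, 298 and 186 CPM in E4 TE. TE was higher in 4 of 5 litters, but the groups overlapped and the log2 difference of ICM over TE, -0.50 ± 0.25, did not pass (adjusted p = 0.137). At D10 it measured 154, 192, 230, 109 and 326 CPM in the ICM and 317, 427, 497, 286 and 334 CPM in the TE. TE was higher in 5 of 5 litters, although ICM replicate 5 lay within the TE range, and the difference was -0.90 ± 0.25 (adjusted p = 0.00773). The group means followed the order D10 TE (372 ± 87.4 CPM), E4 TE (272 ± 66.7), D10 ICM (202 ± 82.6) and E4 ICM (189 ± 37.1), and D10 against E4 gave 0.45 ± 0.24 in the TE (adjusted p = 0.195) and 0.04 ± 0.25 in the ICM (adjusted p = 0.929). Exons annotated to Fgfr2 overlap exons of Ctbp2 on the same strand (132987563 to 133124354), 2825112 bases from the 3′ end of Fgfr2.

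Fgfr4 (ENSMUSG00000005320, chromosome 13, 55152640 to 55168759, plus strand) had means of 33.4 ± 17.5 CPM in E4 ICM, 45.3 ± 12.2 in D10 ICM, 13 ± 10.8 in E4 TE and 25 ± 20.8 in D10 TE. In E4 TE, 4 libraries measured 6.9 to 11.1 CPM and replicate 2 measured 32 CPM. ICM over TE gave 1.51 ± 0.59 at E4 (adjusted p = 0.051) and 0.88 ± 0.47 at D10 (adjusted p = 0.181), with ICM higher in 4 of 5 litters each time. Neither difference passed. At E4 it passed without E4 TE replicate 2 (2.09, adjusted p = 0.0164), without E4 ICM replicate 2 (1.66, adjusted p = 0.039), without D10 TE replicate 2 (1.48, adjusted p = 0.0357) or replicate 4 (1.48, adjusted p = 0.0307), in the fit with no filter (1.48, adjusted p = 0.0144), and without the zona-bearing litters (2.50, adjusted p = 0.0182). At D10 it passed without D10 TE replicate 2 (1.46, adjusted p = 0.0265) and with limma voom (1.41, adjusted p = 0.0274). D10 against E4 gave 0.36 ± 0.47 in the ICM (adjusted p = 0.636) and 0.99 ± 0.59 in the TE (adjusted p = 0.246). Fgfr3 (ENSMUSG00000054252, chromosome 5, 33721674 to 33737068, plus strand) was near the limit of detection, with 8 counts over E4 ICM, 10 over D10 ICM, 4 over E4 TE and 5 over D10 TE. All 4 counts of E4 TE came from replicate 2. No difference in Fgfr3 was detectable at this depth, and the lowest adjusted p over the 4 comparisons was 0.559, in the fit with no filter.

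**Figure D2:**
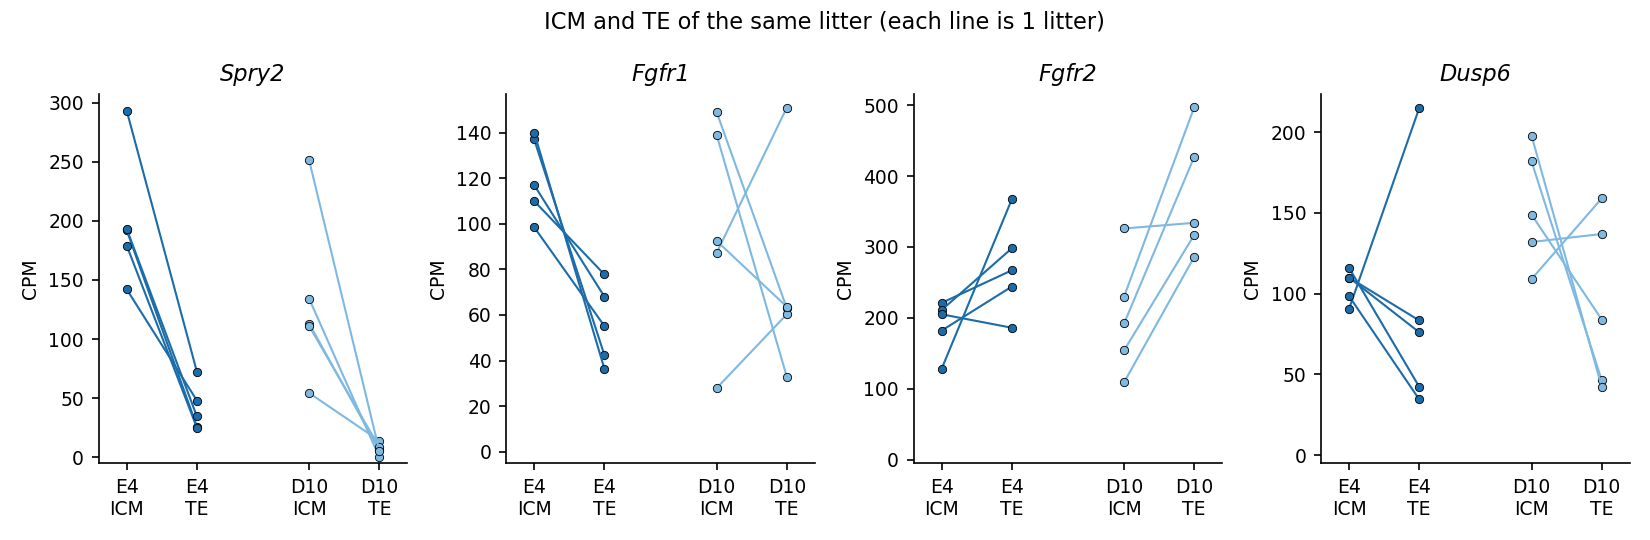
ICM and TE of the same litter joined by a line, for Spry2, Fgfr1, Fgfr2 and Dusp6, in CPM on linear axes, with E4 litters in dark and D10 litters in light blue. Spry2 is higher in ICM in 5 of 5 litters at each time, Fgfr2 is higher in TE in 4 of 5 litters at E4 and 5 of 5 at D10, and Fgfr1 and Dusp6 are each higher in ICM in 3 of 5 litters at D10.

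Spry2 and Spry4, the Sprouty members, encode inhibitors that act between the receptor and ERK and are themselves induced by ERK. Spry2 (ENSMUSG00000022114, chromosome 14, 105891947 to 105896819, minus strand) was higher in ICM than in TE at both times, and in the TE it was lower at D10 than at E4. It measured 293, 142, 192, 179 and 193 CPM in E4 ICM and 72.3, 48, 26, 25 and 34.5 CPM in E4 TE. At D10 it measured 54.3, 113, 134, 111 and 251 CPM in the ICM and 14, 5.88, 0, 8.37 and 5.3 CPM in the TE. No ICM library overlapped a TE library of its time, and every D10 TE library lay below every E4 TE library. ICM over TE gave 2.37 ± 0.38 at E4 (adjusted p = 4.01e-05) and 4.18 ± 0.45 at D10 (adjusted p = 1.73e-07), with ICM higher in 5 of 5 litters each time. In the TE the change from E4 to D10 was -2.40 ± 0.52 (adjusted p = 0.00135), resting on 54 counts over the E4 group and 18 over the D10 group. In the ICM the change was -0.59 ± 0.33 and did not pass (adjusted p = 0.203). Without D10 ICM replicate 5 it was -0.89 and passed (adjusted p = 0.0488). The difference between the ICM change and the TE change, tested directly, was 1.81 ± 0.61 and did not pass (adjusted p = 0.0865). It passed with DESeq2 (1.92, adjusted p = 0.0383), with no filter (1.82, adjusted p = 0.0124), without D10 ICM replicate 1 (2.02, adjusted p = 0.0403) and without D10 TE replicate 1 (2.31, adjusted p = 0.0445).

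Spry4 (ENSMUSG00000024427, chromosome 18, 38586247 to 38601415, minus strand) had 1, 4, 10, 12 and 5 counts in E4 ICM and 0 in each E4 TE library. In D10 ICM it had 8, 3, 0, 11 and 1 counts, and in D10 TE 2 counts, both in replicate 1. With the TE set to 3 counts, it was 9.16-fold higher in ICM at E4 (lower exact 95% limit 7.03), with ICM higher in 5 of 5 litters. The adjusted p was 4.53e-05 in the fit with no filter, whose p-values are smaller than those of the main fit for large differences. At D10 the pooled counts, 23 against 2, gave a ratio of 13 (95% interval 3.22 to 114, counting error only; adjusted p = 0.00217), with ICM higher in 4 of 5 litters. Thinning every library to the lowest total left an adjusted p of 0.224 at D10. Within the ICM, the change from E4 to D10 was -0.66 ± 0.63 (adjusted p = 0.473).

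Etv5 and Etv4, ETS transcription factors downstream of ERK, were detected in the ICM and, but for 4 counts of Etv5, not in the TE. In the ICM, Etv5 fell from E4 to D10, while Etv4 was higher at D10 in a comparison of few counts. Etv5 (ENSMUSG00000013089, chromosome 16, 22381309 to 22439719, minus strand) measured 183, 89.8, 102, 71 and 90.3 CPM in E4 ICM and 49.8, 23.8, 48.1, 27.9 and 48.5 CPM in D10 ICM. Every D10 library lay below every E4 library. The change was -1.49 ± 0.34 (adjusted p = 0.00294). E4 TE held 0 counts and D10 TE held 4, from replicates 2, 3 and 4. With the TE set to 3 counts, Etv5 was 48.6-fold higher in ICM at E4 (lower exact 95% limit 39.1; adjusted p = 8.98e-08). At D10 the difference was 4.32 ± 0.54 (adjusted p = 3.54e-06), and the pooled ratio was 21 (95% interval 7.86 to 79).

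Etv4 (ENSMUSG00000017724, chromosome 11, 101769742 to 101785371, minus strand) had 0, 0, 1, 3 and 0 counts in E4 ICM and 6, 10, 1, 17 and 1 counts in D10 ICM. No TE library held a count. From E4 to D10 in the ICM the pooled ratio was 6.82 (95% interval 2.44 to 26.4, 35 against 4 counts), and the difference in the fit with no filter was 2.62 ± 0.85 (adjusted p = 0.0256). The groups overlapped, since D10 replicates 3 and 5 (5.34 and 4.4 CPM) lay within the E4 range of 0 to 5.91 CPM. The call was lost, with adjusted p up to 0.093, without any of E4 ICM replicates 1, 2, 3 and 5 or D10 ICM replicates 1, 2 and 4. It was also lost without the litters with a zona (0.176) and with thinned libraries (0.328). With the TE set to 3 counts, Etv4 was 13.2-fold higher in ICM at D10 (lower exact 95% limit 10.2), in 5 of 5 litters. The adjusted p was 7.02e-06 in the fit with no filter. At E4 the 4 ICM counts against 0 did not pass (adjusted p = 0.229).

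Dusp6 (ENSMUSG00000019960, chromosome 10, 99263231 to 99267489, plus strand), whose product removes the activating phosphates from ERK, passed no test. It measured 110, 110, 90.6, 116 and 98.5 CPM in E4 ICM, the narrowest spread of its 4 groups, and 149, 132, 182, 109 and 198 CPM in D10 ICM. In the TE it measured 83.4, 76.1, 215, 42.3 and 34.5 CPM at E4 and 84, 137, 46.4, 159 and 42.4 CPM at D10. The high E4 TE library, replicate 3, lay above all ICM libraries of both times. ICM over TE gave 0.16 ± 0.39 at E4 (adjusted p = 0.784) and 0.67 ± 0.37 at D10 (adjusted p = 0.193). D10 against E4 gave 0.52 ± 0.38 in the ICM (adjusted p = 0.344) and 0.01 ± 0.38 in the TE (adjusted p = 0.991).

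The bases just before the start sites of Fgf4, Etv5, Spry2 and Dusp6 are shown because the first 3 had ICM levels above TE at both times while Dusp6, also an ERK target, did not pass. They come from RefSeq (GRCm38.p6), which gave windows of 300 bases, 250 before and 50 after a start site, for 7 of the 10 genes. Fgfr1, Spry4 and Etv4 were not among them. Only bases outside annotated exons are printed, from 250 to 1 bases before the start site (250 to 150 for Etv5), 5′ to 3′ on the gene's strand. Capitals mark CGGAAG, the inner part of the ETS family motif CCGGAAGT, read on either strand. Shorter or other forms of ETS sites were not searched and are not marked. The stretches are chr7:144861136-144861385 on the plus strand for Fgf4, chr16:22439720-22439820 on the minus strand for Etv5, chr14:105896820-105897069 on the minus strand for Spry2 and chr10:99262981-99263230 on the plus strand for Dusp6.
Fgf4: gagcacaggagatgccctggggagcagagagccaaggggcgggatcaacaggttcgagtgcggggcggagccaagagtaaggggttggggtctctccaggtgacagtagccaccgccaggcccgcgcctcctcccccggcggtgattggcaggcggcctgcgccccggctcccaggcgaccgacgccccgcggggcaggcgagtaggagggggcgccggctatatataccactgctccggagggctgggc
Etv5: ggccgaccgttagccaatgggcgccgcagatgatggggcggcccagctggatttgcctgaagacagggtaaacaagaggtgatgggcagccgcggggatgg
Spry2: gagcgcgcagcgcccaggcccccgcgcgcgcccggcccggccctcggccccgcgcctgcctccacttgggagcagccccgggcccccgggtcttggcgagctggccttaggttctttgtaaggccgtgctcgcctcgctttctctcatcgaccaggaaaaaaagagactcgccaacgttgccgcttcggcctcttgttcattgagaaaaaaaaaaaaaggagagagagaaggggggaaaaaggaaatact
Dusp6: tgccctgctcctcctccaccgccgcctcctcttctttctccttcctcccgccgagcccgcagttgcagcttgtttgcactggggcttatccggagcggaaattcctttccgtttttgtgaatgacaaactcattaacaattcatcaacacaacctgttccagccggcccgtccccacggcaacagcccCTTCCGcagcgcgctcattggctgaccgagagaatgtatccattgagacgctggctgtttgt

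CGGAAG, searched on both strands of the full windows, occurred in 1 of the 9 windows of the 7 genes, that of Dusp6. There it lay 62 bases before the start site, as CTTCCG on the printed strand. CGGAAG occurred in 16.9% of all 32851 windows of 27025 genes. The longer CCGGAAGT, which contains CGGAAG, occurred in 0 of the 9 windows and in 3.89% of all windows. Of the 2 Etv5 windows, the one shown in part held 74.0% G and C with 37 CpG pairs, and the other 60.0% with 19. The values were 69.7% for Fgf4 with 28, 62.7% for Spry2 with 28 and 57.3% for Dusp6 with 19, against medians of 52.7% and 7.0 over all windows. That of Fgfr2 held 43.7% and 4. A match or its absence is a description of these letters only.

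Calls were counted over the 7 tested genes. Fgf4 was at 0 in the TE at both times, so it could not be called in the TE over time. At E4, 4 genes were higher in ICM (Fgf4, Fgfr1, Spry2 and Etv5) and 0 lower, against 15.8% of all tested genes called higher and 15.4% called lower. At D10, 3 were higher in ICM (Fgf4, Spry2 and Etv5) and 1 was lower (Fgfr2), against 12.9% and 12.6%. The median log2 difference of the 7 was 1.51 at E4 and 0.88 at D10, beside 0.04 and 0.01 over all tested genes, also with genes at 0 in a group set to their bound. From E4 to D10 in the ICM, 0 were higher and 2 were lower (Fgf4 and Etv5), against 13.7% and 9.97%, and the median change was -0.40, beside -0.003 over all tested genes. In the TE, 0 were higher and 1 was lower (Spry2), against 11.9% and 9.89%, and the median was 0.45, or 0.01 with Etv5 at its bound, beside 0.02. At an unadjusted p under 0.05, and by DESeq2 and voom, each of these counts of 0 was also 0. With 7 genes, 1 call is 1 in 7, so nothing is read from these counts. The ICM and TE groups had no library in common in CPM for 4 genes at E4 (Fgf4, Fgfr1, Spry2 and Etv5), beside 10.5% of all tested genes with ICM above TE, and for 3 at D10 (Fgf4, Spry2 and Etv5), beside 7.89%. Over time, D10 lay wholly below E4 for Etv5 in the ICM, beside 6.54% of all tested genes, and for Spry2 in the TE, beside 6.6%. The genes that passed the filter include some that passed through the ICM alone, so these counts support nothing further. In the fit with no filter, 6% of genes were called higher in ICM at E4 and 7.17% at D10, and 6.46% were called higher at D10 in the ICM, which is the background for Spry4 and Etv4. No member passed the test of the difference between the ICM and TE changes, against 4.98% of all tested genes. At an unadjusted p under 0.05 there were 2, Spry2 and Etv5, and DESeq2 called 1 and voom 0. For Etv5 the adjusted p was 0.109, with the E4 TE group at 0, and for Fgf4 and Etv4 it could not be estimated, since the TE was at 0 at both times. The other values were -0.88 ± 0.53 for Fgfr1 (adjusted p = 0.375), -0.41 ± 0.35 for Fgfr2 (adjusted p = 0.574), -0.63 ± 0.76 for Fgfr4 (adjusted p = 0.707) and 0.51 ± 0.54 for Dusp6 (adjusted p = 0.66).

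**Figure D3:**
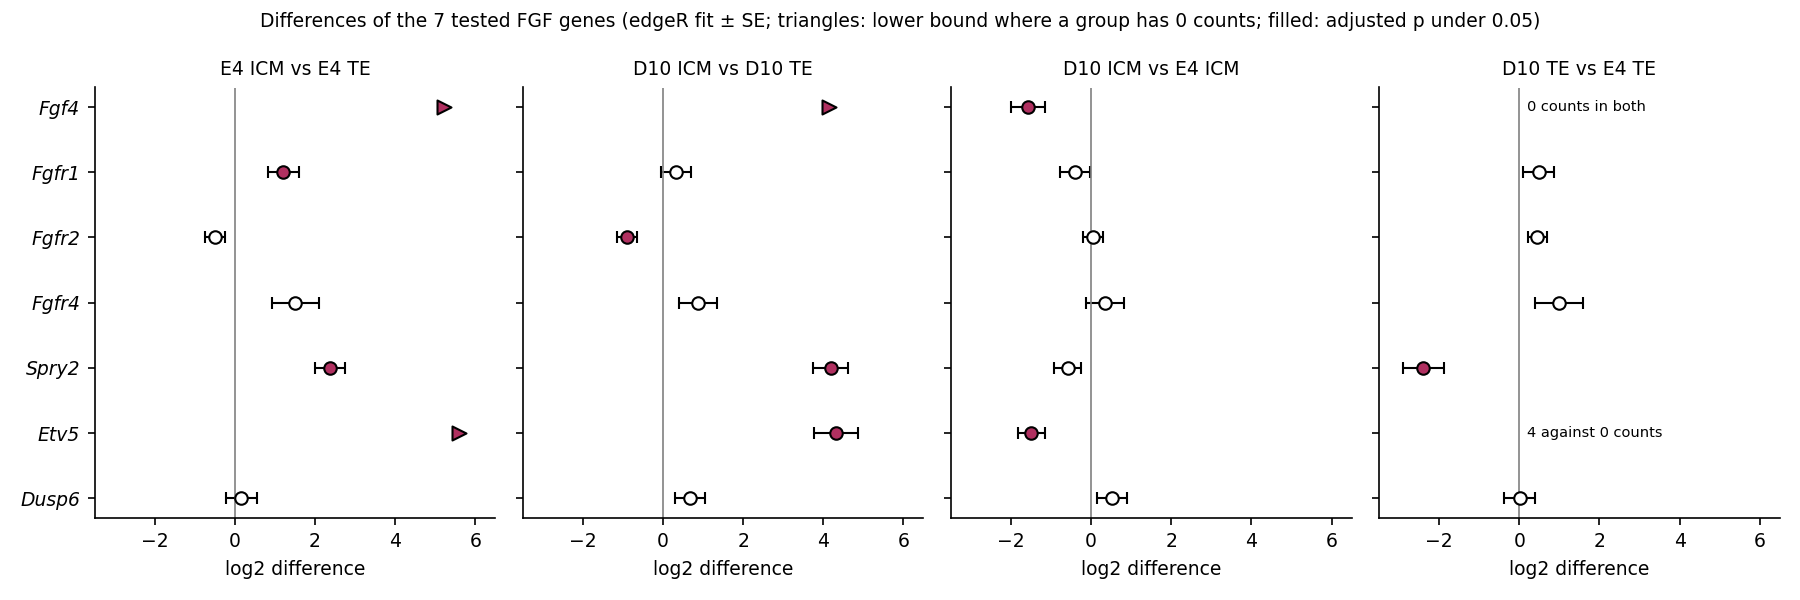
Log2 differences of the 7 tested genes in the 4 comparisons, with SE as bars and filled symbols for an adjusted p under 0.05. Triangles mark bounds, with the ICM count as it stands, where the TE group holds 0 counts (Fgf4 at both times and Etv5 at E4). Fgf4 and Etv5 have filled symbols in each comparison except D10 TE vs E4 TE, where their counts are printed.

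Fgf4, Etv5 and Spry2 were also set against the summed epiblast markers in each ICM library. Fgf4 came to 2.63, 3.25 and 5.02% of that sum (lowest, median and highest) at E4 and to 0.924, 1.64 and 4.79% at D10. Etv5 came to 3.79, 4.42 and 6.08% at E4 and to 2.05, 3.51 and 4.81% at D10. Spry2 came to 7, 9.14 and 10.5% at E4 and to 4.38, 9.74 and 18.2% at D10. For all 3 genes the ranges of the times overlapped on this scale, whereas in CPM those of Etv5 did not. The medians of Fgf4 and Etv5 were lower at D10 and that of Spry2 was close. These shares are a description with no test, since the epiblast markers themselves changed in the ICM. Of 9 tested, 5 were lower at D10 and 0 higher, against 9.97% and 13.7% of all tested genes. Among the 5 was Nanog (-2.55 ± 0.44, adjusted p = 0.000158). Of 11 primitive endoderm markers, 6 were higher at D10 and 1 was lower, against 13.7% and 9.97% of all tested genes. The 1 lower was Gata6 (-1.04 ± 0.30, adjusted p = 0.0139).

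**Figure D4:**
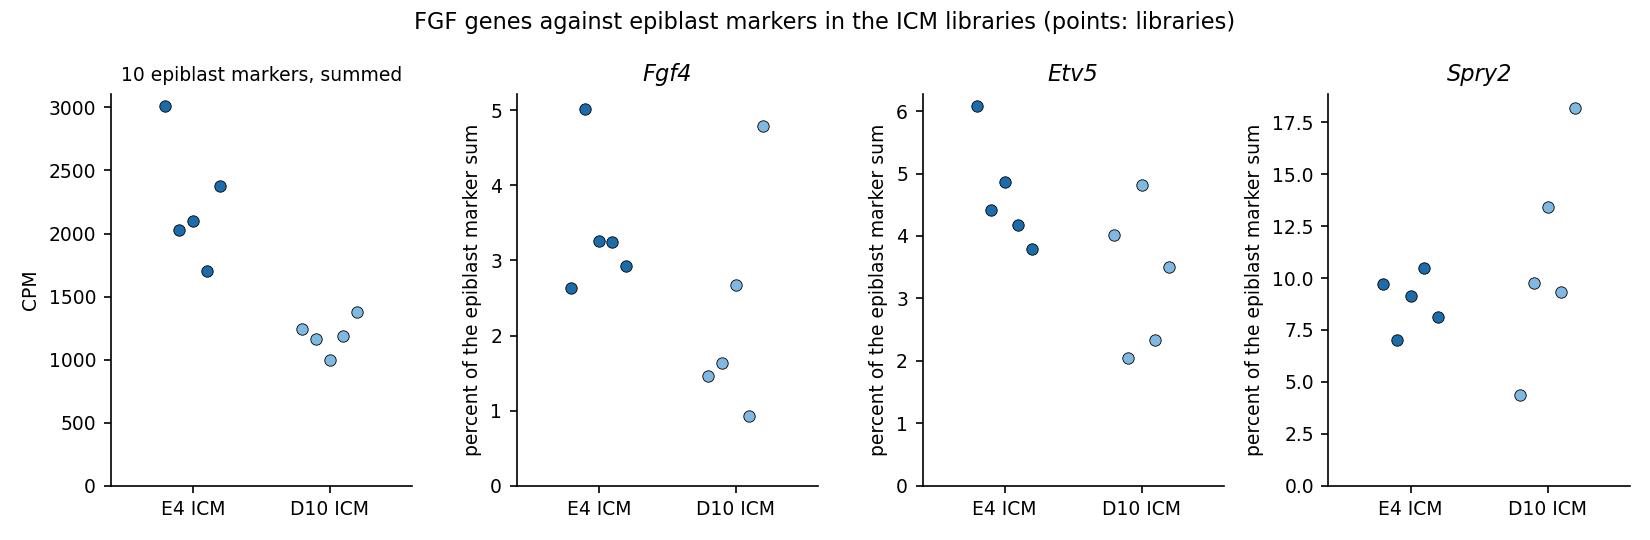
Summed CPM of the 10 epiblast markers in each ICM library, and Fgf4, Etv5 and Spry2 as a percent of that sum, on linear axes from 0. Points are libraries. The marker sums of the times do not overlap (1700 to 3010 against 999 to 1380 CPM), while the percents of all 3 genes overlap.

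The genes whose profiles were most like each member were found by Pearson correlation of log2 CPM over the 20 libraries, among 6600 tested genes with clone names and pseudogenes left out. The libraries share their groups, pools and litters, so these coefficients mostly describe group differences. Fgf4 was most like Jam2 (0.977), Gdf3 (0.975) and Etv5 (0.972), and Etv5 most like Gdf3 (0.981), Jam2 (0.978) and Fgf4 (0.972). After group means were removed, the coefficient of Fgf4 with Etv5 was 0.394. Spry2 was most like Bcat1 (0.947), Dppa2 (0.931) and Phlda1 (0.922), the last an ERK target in the lists below. For the receptors and Dusp6 the highest coefficients were lower, at 0.784 for Fgfr1 (Snhg5), 0.834 for Fgfr2 (Rock1), 0.808 for Fgfr4 (Cnot6l) and 0.724 for Dusp6 (Adgrl2).

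Other genes of the pathway were described from 6 lists. The lists are short, so the share of all tested genes called is given beside each count, and nothing is read from the counts themselves. Among 21 other ligands, 12 were in the table and 1, Fgf10, was tested. Fgf10 was higher in ICM at both times, with 183 counts against 2 at E4 (ratio 78.5, 95% interval 21.4 to 653; adjusted p = 2.26e-07) and a log2 difference of 4.69 ± 0.48 at D10 (adjusted p = 1.02e-07). Without D10 TE replicate 1 the latter was 5.89. It measured 100 ± 27.4 CPM in E4 ICM and 108 ± 31.1 CPM in D10 ICM, and did not pass between the times. Below the filter, Fgf3 had 38 counts over E4 ICM, 0 over E4 TE, 64 over D10 ICM and 2 over D10 TE, and Fgf5, a ligand of the later epiblast, had 4, 0, 56 and 0, with the D10 counts in 2 libraries.

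Of 17 co-receptors and ligand-binding proteins, 5 were tested. At E4, 2 were higher and 2 lower in ICM (15.8% and 15.4% of all tested genes), with 0 to 4 higher over the alternatives. At D10, 2 were higher and 1 lower (12.9% and 12.6%). Flrt3, a membrane protein that binds FGF receptors, was higher in ICM at both times. At E4 the ratio was 125 (95% interval 34.4 to 1040, 292 against 2 counts, adjusted p = 8.02e-06). That interval covers counting error only, and the E4 ICM libraries ran from 6.1 to 296 CPM. At D10 the difference in Flrt3 was 5.78 ± 0.71 (adjusted p = 1.27e-06), or 6.52 without D10 TE replicate 1. Fgfrl1, an FGF receptor without a kinase domain, was lower in ICM at E4 (-2.92 ± 0.54, adjusted p = 0.000181) and at D10 (-4.01 ± 0.53, adjusted p = 3.37e-06; -5.10 without D10 ICM replicate 4). Gpc3, a heparan sulfate proteoglycan, rose in the ICM from E4 to D10 (5.21 ± 0.75, adjusted p = 4.62e-05), with D10 libraries spread from 72.4 to 1170 CPM (4.07 without D10 ICM replicate 4, 6.05 without E4 ICM replicate 5), and was higher in ICM than in TE at D10 (ratio 530, 95% interval 181 to 2570; adjusted p = 1.27e-06). The syndecan Sdc4 was lower in ICM at E4 (-1.63 ± 0.25, adjusted p = 2.05e-05) and fell in the TE over time (-0.75 ± 0.24, adjusted p = 0.0257). The latter call was lost without the zona-bearing litters and without E4 TE replicate 5 or D10 TE replicate 1, 2 or 3 (adjusted p up to 0.0561).

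Of 21 enzymes of heparan sulfate, 6 were tested. Over time, 1 rose in the ICM (13.7% of all tested genes), the sulfotransferase Hs3st1 (1.76 ± 0.40, adjusted p = 0.00242), and 1 fell in the TE (9.89%), the related Hs3st3b1 (-2.50 ± 0.28, adjusted p = 4.6e-07), from 153 ± 19.8 to 26.8 ± 6.47 CPM. Hs3st3b1 was lower in ICM at E4 (-3.11 ± 0.31, adjusted p = 1.03e-07). At D10, Hs3st1 (3.65 ± 0.46, adjusted p = 1.44e-06) and the sulfatase Sulf2 (3.03 ± 0.59, adjusted p = 0.000335) were higher in ICM, and the polymerase subunit Ext2 was lower (-0.95 ± 0.32, adjusted p = 0.0299). The call for Ext2 was lost in 7 alternatives (adjusted p up to 0.0947), among them leaving out any of D10 ICM replicates 1, 4 and 5 or D10 TE replicates 1, 3 and 4. In D10 TE, Sulf2 ran from 1.93 to 99.9 CPM with a median of 11.7, and without replicate 2 the difference was 4.76. Sulf2 was higher in ICM at E4 too (3.44 ± 0.82, adjusted p = 0.00208; 4.49 without E4 TE replicate 1 and 2.84 without replicate 4).

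Of 27 adaptors and members of the RAS-ERK cascade, 22 were tested. In the ICM 4 rose over time (13.7% of all tested genes), led by the docking protein Frs3 (2.99 ± 0.61, adjusted p = 0.000871), the kinase Mapk3, which is ERK1 (2.07 ± 0.43, adjusted p = 0.00106), and the adaptor Gab1 (0.95 ± 0.25, adjusted p = 0.0073). Passing as lower was 1 (9.97%), the phosphatase Ptpn11 (adjusted p = 0.0412), a gene named after its values were seen, and this count held in 4 of 28 alternatives. In the TE 3 rose and 3 fell (11.9% and 9.89%), led by Frs2 (-1.35 ± 0.27, adjusted p = 0.00069), Frs3 (2.18 ± 0.46, adjusted p = 0.00123) and Crk (-0.88 ± 0.20, adjusted p = 0.00182). Frs2 links FGF receptors to RAS, as Frs3 does. At E4, 0 were higher and 4 lower in ICM (15.8% and 15.4%), among them Frs2 (-1.78 ± 0.29, adjusted p = 4.23e-05) and Gab2 (-2.45 ± 0.56, adjusted p = 0.00157). At D10, 2 were higher (12.9%), Mapk3 (1.53 ± 0.39, adjusted p = 0.00447) and Grb2 (0.77 ± 0.25, adjusted p = 0.0219). The call for Grb2 was lost with no filter, with thinned libraries and without D10 ICM replicate 5 or D10 TE replicate 3 or 4 (adjusted p up to 0.315). At D10 2 were lower (12.6%), among them Gab2 (-2.36 ± 0.57, adjusted p = 0.00277), with 0 to 4 over the alternatives.

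Of 22 other feedback inhibitors, 11 were tested. At D10, 4 were higher and 2 lower in ICM (12.9% and 12.6% of all tested genes), the latter 1 in 21 of 28 alternatives, with the Sprouty gene Spry1 (1.76 ± 0.39, adjusted p = 0.00139), the phosphatase Dusp4 (3.44 ± 0.72, adjusted p = 0.000806; 4.68 without D10 TE replicate 2) and the RAF inhibitor Pebp1 (0.78 ± 0.19, adjusted p = 0.00266) leading. At E4, 2 were higher (15.8%), led by Dusp4 (51 against 2 counts, ratio 21.9, 95% interval 5.76 to 186; adjusted p = 0.000457), and 3 were lower (15.4%), among them the ubiquitin ligase Cbl (-1.12 ± 0.25, adjusted p = 0.00126) and the phosphatase Dusp14 (-0.98 ± 0.26, adjusted p = 0.00529). Over time, Pebp1 (0.65 ± 0.19, adjusted p = 0.0137) and the ERK phosphatase Dusp9 (1.35 ± 0.40, adjusted p = 0.0143) rose in the ICM. The call for Pebp1 was lost in 4 alternatives (adjusted p up to 0.0886), among them without D10 ICM replicate 4, and that for Dusp9 without D10 ICM replicate 2 or the zona-bearing litters (up to 0.0853). In the TE, Dusp1 (-2.80 ± 0.63, adjusted p = 0.00207) and Cbl (-1.05 ± 0.24, adjusted p = 0.00241) fell, and Rasa2, which switches RAS off, rose (1.20 ± 0.31, adjusted p = 0.00607).

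Of 24 other ERK-responsive factors and targets, 11 were tested. Over time 3 rose and 2 fell in the ICM (13.7% and 9.97% of all tested genes), and 1 rose and 4 fell in the TE (11.9% and 9.89%). Without E4 ICM replicate 1 or 4 the ICM count of 2 was 1, and without E4 TE replicate 1 the TE count of 4 was 2. Srf, a transcription factor of immediate early genes, fell in both (-1.20 ± 0.35, adjusted p = 0.0138 in the ICM; -1.55 ± 0.33, adjusted p = 0.00118 in the TE), and Etv3, an ETS repressor, rose in both (1.52 ± 0.36, adjusted p = 0.00347; 1.66 ± 0.36, adjusted p = 0.00141). Ets2 rose in the ICM (1.77 ± 0.42, adjusted p = 0.00362), and the repressor Erf fell in the TE (-1.32 ± 0.36, adjusted p = 0.00844). The call for Erf was lost without the zona-bearing litters (adjusted p = 0.116), and that for Srf in the ICM without E4 ICM replicate 4 (0.0571). At E4, Phlda1 was higher in ICM (3.19 ± 0.45, adjusted p = 7.02e-06) and Ets2 lower (-2.11 ± 0.42, adjusted p = 0.00039). At D10, 3 were higher in ICM, Phlda1 (4.55 ± 0.53, adjusted p = 5.53e-07), Junb (1.26 ± 0.34, adjusted p = 0.00619) and Mcl1 (0.51 ± 0.17, adjusted p = 0.0229), and 1 was lower (12.9% and 12.6%). The call for Mcl1 was lost with no filter and when replicate 4 of either D10 tissue or replicate 3 of D10 ICM was left out (adjusted p up to 0.221).

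**Figure D5:**
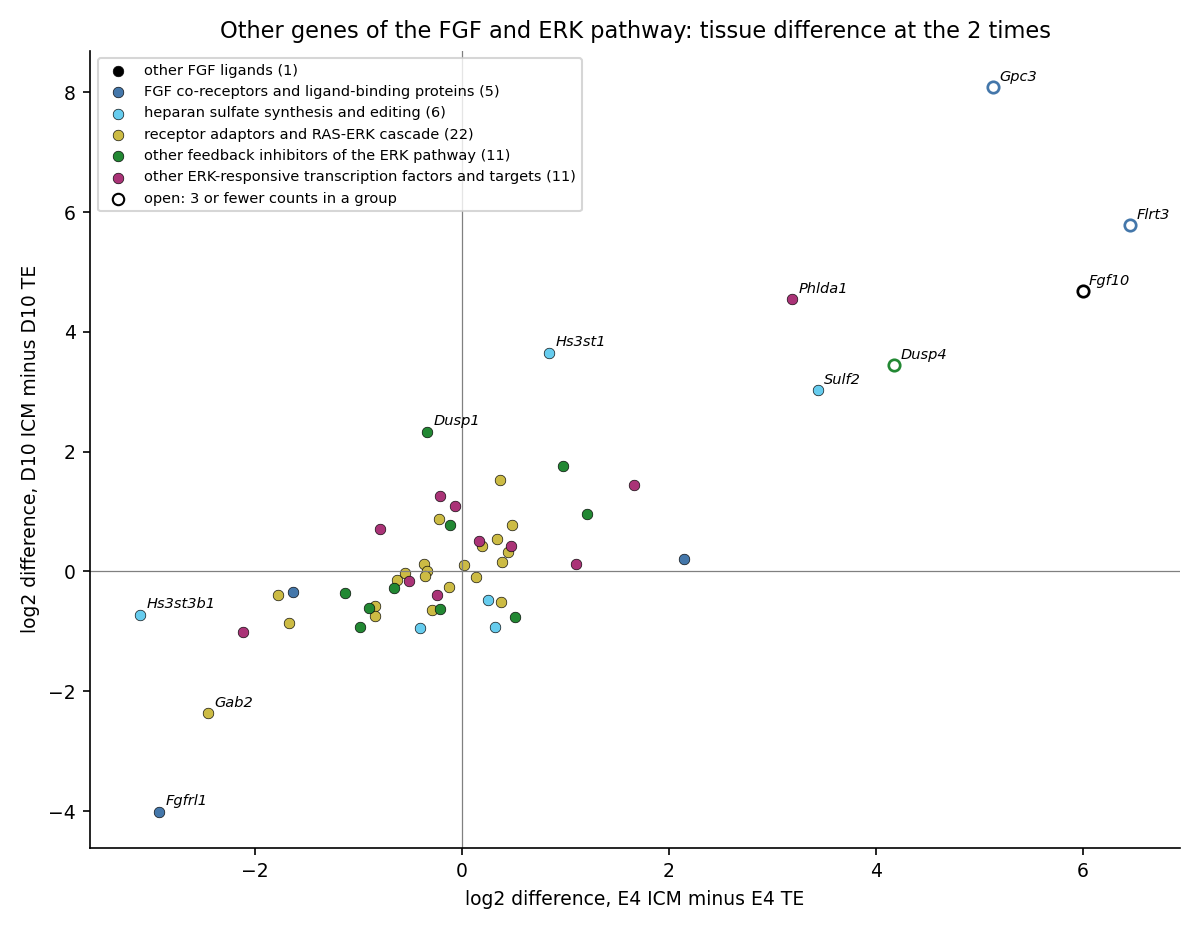
Log2 difference of ICM over TE at E4 (x axis) and D10 (y axis) for the tested genes of the 6 pathway lists, coloured by list with the number of genes in brackets. Open symbols have 3 or fewer counts in a group, so their fitted position depends on the prior count and is no measure of size. Fgfrl1 and Gab2 lie at lower left (TE higher at both times), and Phlda1 and Sulf2 at upper right (ICM higher at both times).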

How the data were processed

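Raw counts per gene and barcode for 20 libraries were deposited by the authors as 1 table. Per the labels' protocols, libraries were made by BRB-seq: barcoded oligo-dT reverse transcription, mixing of replicates, then PCR, where read 1 holds the UMI (10 bases) and barcode (9 bases) and read 2 the insert (81 bases). Tools named in the submitters' processing notes are HISAT2 2.2.1, featureCounts 2.0.1, UMI-tools and Trim Galore 0.6.7, and builds GRCh38 and GRCm38, without what each was used for. The annotation, the use of strand and any collapsing by UMI are not stated there, so counting intervals and limits cover counting error only. Reads of overlapping genes (Gm16159 opposite Fgfr1, G630022F23Rik opposite Fgfr3, Ctbp2 on the strand of Fgfr2) could therefore not be told apart where exons overlap. These genes lie 19635 bases (Fgfr1), 13399 bases (Fgfr3) and 2825112 bases (Fgfr2) from the 3′ end of the receptor gene. Among them only Ctbp2 is in the count table. There were 8 rows with no gene symbol and 0 unused columns.

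One edgeR 4.0.16 quasi-likelihood fit of the 4 groups (R 4.3.3, TMM, filterByExpr with a minimum count of 10, 6943 genes) gave 5 comparisons: D10 against E4 in each tissue, ICM against TE at each time, and the difference of the time changes. P-values were adjusted by Benjamini-Hochberg over all genes tested, with a threshold of 0.05. Those of the main fit measure the spread between these libraries. The SE of an edgeR difference was worked back from the difference and its unadjusted p-value, so it holds no information beyond them. With no filter, the ratio of difference to SE was in effect read against a normal curve, as if each gene's spread were known. Spry2, D10 ICM vs D10 TE, had an adjusted p of 1.73e-07 in the main fit and 2.69e-28 with no filter. Calls that rest on the fit with no filter are therefore weaker than their p-values read. A group at 0 counts was set to 3 counts over the group, and a group of 1 to 3 counts got a pooled ratio with an exact 95% interval. The bound for a group at 0 takes the other group's count as it stands, so the lower exact 95% limit is given beside it. The procedure was also run on simulated counts of genes that passed the filter, with changes put into D10 ICM alone. No group was set to 0 there, so that run covers neither such groups nor genes below the filter. Replicates all differed beyond counting noise (chi-square per degree of freedom of at least 2.57). Alternatives were RLE factors, DESeq2 1.42.0, limma 3.58.1 voom, no filter, a minimum count of 20, thinned libraries, a fit of the compared groups alone, litter as a block, E4 litters without a zona, and leaving out each library.

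Litter pairing comes from the deposited barcode list. Across genes, the deviations of ICM and TE of 1 litter from their groups' means had correlations of 0.104 to 0.263 in the 5 litters of E4 (mean 0.177) and -0.0302 to 0.293 in those of D10 (mean 0.168). Pairs from different litters had a mean of -0.0435 at E4 (highest 0.0692) and -0.0418 at D10 (highest 0.0893). The main fit holds no litter term. Members, gene lists and rules were chosen with earlier results of these data known. The text names all 10 members, up to 3 tested genes per pathway list and comparison with the smallest adjusted p under 0.05, the 3 genes most like a member, and the lineage genes Nanog and Gata6. One gene that the rule names is not reported here. Fgf3 and Fgf5 are outside this rule and were named after their values were seen.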

Additional observations from a re-analysis of the deposited data

Results flagged for a closer look

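In 7 of 34 groups with a count, 1 library of a member lay apart from the other 4 by more than Dixon's limit of 0.71 of the group's range. These were Fgf4 in D10 ICM (replicate 5, 66.1 CPM, next 26.7), Etv5 in E4 ICM (replicate 1, 183 CPM, next 102), Fgfr1 in D10 TE (replicate 2, 151 CPM, next 63.6), Fgfr4 in E4 TE (replicate 2, 32 CPM, next 11.1) and Dusp6 in E4 TE (replicate 3, 215 CPM, next 83.4). With few counts, so were Fgfr3 in E4 TE (replicate 2, 16 CPM from 4 counts) and Spry4 in D10 TE (replicate 1, 3.5 CPM from 2 counts), each with the other 4 libraries at 0. In such a group the rule flags any count. Dixon's limit is set for normal values, and these CPM come from counts at unequal depth. The number of groups flagged is therefore not read as an excess.

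For 4 other pathway genes the change from E4 to D10 differed between ICM and TE by a test of the difference itself. Hs3st3b1 gave 2.39 ± 0.47 (log2, ICM minus TE, adjusted p = 0.00287), Hs3st1 2.81 ± 0.70 (adjusted p = 0.0177), Sdc4 1.29 ± 0.34 (adjusted p = 0.0266) and Frs2 1.39 ± 0.41 (adjusted p = 0.0485). The call for Frs2 was lost in 16 alternatives (adjusted p up to 0.267), that for Hs3st1 in 4 (up to 0.126), and that for Sdc4 without the litters with a zona (0.0742).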

How the results depend on the processing

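Of 919 alternative values for the tested members, 875 kept direction and side of the threshold, and of 315 for Fgfr3, Spry4 and Etv4, 291 did. Litter as a replicate block changed no member's call: ICM over TE for Spry2, E4 ICM vs E4 TE, was 2.38, and for Spry2, D10 ICM vs D10 TE, 4.08. The count of members called moved in the ICM over time from 0 to 1 higher with no filter, and from 2 to 1 lower with thinned libraries or without the litters with a zona. That count of lower members was 3 without D10 ICM replicate 5. At E4 the members higher in ICM were 3 to 6 around 4 (6 with no filter or without the litters with a zona). At D10, 5 in place of 3 were higher in ICM with no filter, and 2 to 5 over all alternatives. In the difference of the time changes, 1 in place of 0 was higher with DESeq2, with no filter, and without some libraries (0 to 1).

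Values that changed sign were not called in either fit. Fgfr2, D10 ICM vs E4 ICM, was -0.067 with voom, -0.083 without the litters with a zona, and -0.17 to 0.21 over left-out libraries. Dusp6 was -0.003 with no filter and -0.16 without those litters over time in the TE (-0.29 to 0.69 over left-out libraries), -0.05 without them at E4 (-0.10 to 0.84), and -0.15 to 0.83 in the difference of the time changes. Fgfr3 was 3.00 in the TE over time without them (-1.27 to 2.91), -0.50 at D10 thinned (-0.18 to 1.71), -0.66 thinned and -3.71 without them in the difference of the time changes (-3.05 to 1.14), and -1.23 to 0.37 in the ICM over time. The cause was not tested.

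Thinning every library to the lowest total lowered the all-gene counts from 951 higher and 692 lower to 552 and 378 in the ICM over time, from 826 and 687 to 425 and 390 in the TE, from 1094 and 1071 to 548 and 648 at E4, from 898 and 873 to 458 and 456 at D10, and from 219 and 127 to 124 and 51 in the difference of the time changes. With no filter 1474 genes were higher at D10 and 352 in that difference. Without the litters with a zona 379 were lower in the ICM over time, and 144 higher and 54 lower in the difference, with 83 lower without D10 ICM replicate 2. Of 1410 pathway list counts, 198 moved, 168 of them by 1 gene. Among the pathway genes named, 43 of 55 results kept their call in every alternative, and none changed sign.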
